A study of Mus musculus with 4 samples.

Results

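The NR2F genes encode the COUP-TF family of nuclear receptors, and the mouse genome has 3 of them among 21924 protein-coding genes of the annotation used here. Nr2f1 encodes NR2F1 (COUP-TFI), Nr2f2 encodes NR2F2 (COUP-TFII) and Nr2f6 encodes NR2F6 (EAR2). Anti-NR2F1 signal was described at these 3 genes and their surroundings. Called peaks of 4 libraries were merged wherever they overlapped by at least 1 bp, and every merged region within the body of an Nr2f gene or 20 kb on either side was taken, which gave 50 of 263639 regions. There were 14 such regions around Nr2f1, 18 around Nr2f2 and 18 around Nr2f6.

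The study asked whether NR2F1 binds a silencer near Gata2 in motor neurons of rhombomere 4 (r4), and whether a single-nucleotide variant there changes the binding. It used single-cell CUT&Tag, in which the transposase Tn5 is brought to an antibody and cuts the DNA around the bound protein, and the sites it cuts are counted as signal. The 2 WT libraries came from hindbrain cells of E10.5 embryos (embryonic day 10.5) with the Isl1MN-GFP reporter, which marks motor neurons, pooled from 26 embryos each. The 2 Fam5snv/snv libraries came from age-matched embryos that were homozygous for the knocked-in variant and carried the same reporter, pooled from 8 embryos in replicate 1 and 16 in replicate 2. Per the labels the sort was opened to GFP-negative cells at its end, so that the libraries can hold other cells of the dissected r4 tissue.

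COUP-TF proteins are orphan nuclear receptors that bind DNA as dimers, alone or with retinoid X receptors, at pairs of the half-site AGGTCA, most often a direct repeat with a single base between the copies (DR1). They act mostly as repressors, and NR2F1 and NR2F2 pattern the developing hindbrain, cortex and eye, while NR2F2 is also known for its role in the identity of venous endothelium. The DNA-binding domains of the family are closely similar, so the same half-site was searched at each of the 3 genes.

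The half-site pairs that lie under NR2F1 peaks at the NR2F genes are shown first, because they are among the sequences nearest to the COUP-TF consensus there. AGGTCA was searched on both strands of the 14 regions that could be compared between libraries, alone and as a direct repeat with a single base of any kind between the copies. The lead region of Nr2f6 (the promoter region of highest signal, defined below) held 1 exact repeat, at chr8:71378254-71378266 on the plus strand (mm10), in an Nr2f6 intron 3.7 kb downstream of its start and within an exon of a transcript of the neighbouring gene Ocel1. It lay inside a called peak of all 4 libraries. The same lead region held 1 repeat with a single mismatch at chr8:71383524-71383536 on the minus strand, 1.57 kb upstream of Nr2f6 and in peaks of all 4 libraries. It also held 3 repeats with 2 mismatches, of which the one shown, at chr8:71382797-71382809, 0.843 kb upstream, was in peaks of all 4 libraries and the others were in peaks of 3. The closest match in the lead region of Nr2f2 had 2 mismatches and lay in an Nr2f2 intron at chr7:70362836-70362848, inside a peak of all 4 libraries. Another, at chr7:70368134-70368146, was 1.41 kb upstream of Nr2f2. In the 4 searched regions around Nr2f1 the only match with up to 2 mismatches was at chr13:78212623-78212635, 12.9 kb upstream, in a peak of 1 library. In the sequences below the 6-base half-sites of each repeat are in capitals with 8 flanking bases on either side, 5′ to 3′ on the strand of the repeat.
Nr2f6 intron, exact repeat: gccctttgAGGTCAgAGGTCAggcggggc
Nr2f6 upstream, 1 mismatch: caaccacaAGGTCAaATGTCAcctcgggg
Nr2f6 upstream, 2 mismatches: tgactcagGGGTGAaAGGTCAccccaaga
Nr2f2 intron, 2 mismatches: acgcttctAGGTCAtAGAACAgttgaata
Nr2f2 upstream, 2 mismatches: aatcttgaGGGTCAaAGGTGAgagatgca
Nr2f1 distal upstream, 2 mismatches: ttgtgtggAGGTCAgAGAACAactttcag
Counted from 1 at the first base of the repeat, the upstream Nr2f6 repeat with a single mismatch differs from the consensus by G9T, and the repeats at the Nr2f2 intron and upstream of Nr2f1 both differ by G10A and T11A.

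Half-sites were unevenly spread over the members. The Nr2f6 lead region held 13 AGGTCA half-sites in 11.6 kb, 12 of them inside peaks of all 4 libraries, against a median of 10 in the 137 tested regions within 10% of its width. An exact DR1 repeat was present in 14.6% of those regions of like width and in 1.93% of all 35770 tested regions. A repeat with up to 1 mismatch was in 48.2% of those of like width. One with up to 2 was in 89.1%, with a median of 3 where the Nr2f6 lead region held 5. The Nr2f2 lead region held 7 half-sites in 8.60 kb, equal to the median of 7 in 337 regions of like width. It held 1 repeat with up to 2 mismatches, where 83.1% of those regions held at least 1 and the median was 2. For the regions that hold the matches upstream of Nr2f2 and of Nr2f1, 49.1% and 74.6% of regions of like width held such a repeat. The Nr2f1 lead region held 2 half-sites in 8.60 kb, where the median of 338 regions of like width was 7, and it held no DR1 repeat with up to 2 mismatches, which 83.4% of those regions had. These are matches of letters in a window and do not identify bound sites.

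The bases just upstream of each 5′-most annotated start are shown because the number of libraries with a called peak there differed between the 3 genes. In the 250-base windows below, 5′ to 3′ on the gene's strand (minus for each gene) in mm10, every CpG is in capitals. The Nr2f1 window is chr13:78199758-78200007, the Nr2f2 window is chr7:70366736-70366985 and the Nr2f6 window is chr8:71381961-71382210.
Nr2f1: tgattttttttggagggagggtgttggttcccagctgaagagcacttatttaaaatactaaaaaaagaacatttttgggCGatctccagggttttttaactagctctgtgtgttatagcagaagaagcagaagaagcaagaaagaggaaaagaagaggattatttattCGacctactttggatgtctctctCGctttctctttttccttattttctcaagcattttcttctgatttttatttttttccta
Nr2f2: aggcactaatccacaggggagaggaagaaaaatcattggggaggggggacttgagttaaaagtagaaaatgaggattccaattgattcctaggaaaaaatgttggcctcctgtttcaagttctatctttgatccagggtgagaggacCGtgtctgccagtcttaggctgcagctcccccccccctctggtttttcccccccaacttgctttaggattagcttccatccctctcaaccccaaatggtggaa
Nr2f6: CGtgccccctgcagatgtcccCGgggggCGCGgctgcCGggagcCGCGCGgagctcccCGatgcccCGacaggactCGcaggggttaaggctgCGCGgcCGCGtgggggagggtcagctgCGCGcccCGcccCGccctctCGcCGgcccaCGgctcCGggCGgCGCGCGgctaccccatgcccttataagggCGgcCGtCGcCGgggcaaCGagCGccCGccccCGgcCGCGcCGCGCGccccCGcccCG
The Nr2f6 window had 42 CpG and was 82.0% G or C, and a called peak of all 4 libraries overlapped it. Of 32851 such windows before RefSeq starts, 0.865% had at least as many CpG, and the median window had 6. The Nr2f1 window had 3 CpG at 35.2% G or C and was overlapped by a peak in WT replicate 2 and Fam5snv/snv replicate 2. The Nr2f2 window had 1 CpG at 48.8% G or C and was overlapped by a peak in Fam5snv/snv replicate 2 alone. None of the 3 windows held AGGTCA, which 14.02% of the RefSeq windows did. Each gene has other coding starts inside its body, and the bases before those were not examined. For Nr2f2 they include the starts at 70360593 and 70359921, which lie in its region of highest promoter signal. The contrast between the windows therefore holds for the 5′-most starts alone and does not describe every promoter of a gene.

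The libraries differed in depth and in how widely peaks were called, which bears on each value below. WT replicates 1 and 2 held 3083946 and 3580517 cut sites in 2572 and 1377 barcodes, and Fam5snv/snv replicates 1 and 2 held 8967987 and 10341894 in 2274 and 2740 barcodes. Pairs of libraries shared 3 to 12 barcodes. A library has counts only inside its own peaks, and WT replicate 1 had 42168 peaks against 137996 to 170993 in the others, so its peaks covered a median of 35.3% of a tested region, against 69.8% in WT replicate 2, 83.1% in Fam5snv/snv replicate 1 and 95.8% in Fam5snv/snv replicate 2. Promoters of motor neuron genes carried signal (6 of 7 listed genes tested, in 5 distinct regions since Chat and Slc18a3 share one). So did those of the r4 genes Hoxb1, Hoxb2 and Hoxa2 (3 of 3). Over the annotation, 12952 of 21924 protein-coding genes had a tested promoter region, so these counts are not particular to the lists. Lists for progenitors, neural crest, mesenchyme, endothelium and blood had 4 of 4, 2 of 3, 3 of 3, 2 of 4 and 2 of 4 genes tested, and Cdh5, Kdr, Gata1 and Ptprc had no tested promoter region. NR2F1 signal at a promoter is not expression, so these lists identify no cells. No control antibody library was analysed here, so the background of the assay at these genes is unknown.

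Of the 50 NR2F regions, 14 had a called peak in every library and could be compared, 4 at Nr2f1, 6 at Nr2f2 and 4 at Nr2f6. The other 36 all lacked a peak in WT replicate 1, while 18 had one in WT replicate 2, 19 in Fam5snv/snv replicate 1 and 24 in Fam5snv/snv replicate 2. They held at most 123 cut sites in any library. The highest by CPM, chr7:70336135-70338381 downstream of Nr2f2, had 27.4 CPM in WT replicate 2, 9.30 in Fam5snv/snv replicate 1 and 8.47 in Fam5snv/snv replicate 2, where the median tested region had 16.5. The 14 compared regions held 100% of the NR2F cut sites of WT replicate 1 by construction and between 87.4% and 97.9% of those of each gene in the other libraries. Signal is given below as CPM, cut sites per 1000000 in tested regions after TMM scaling, and as CPM per kb of called peak where levels are compared between genes. A promoter region is a merged region within 1 kb of the start of a coding transcript, and the one of highest mean CPM leads for its gene. Of the 35770 tested regions, 12647 were promoter regions.

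**Figure D1:**
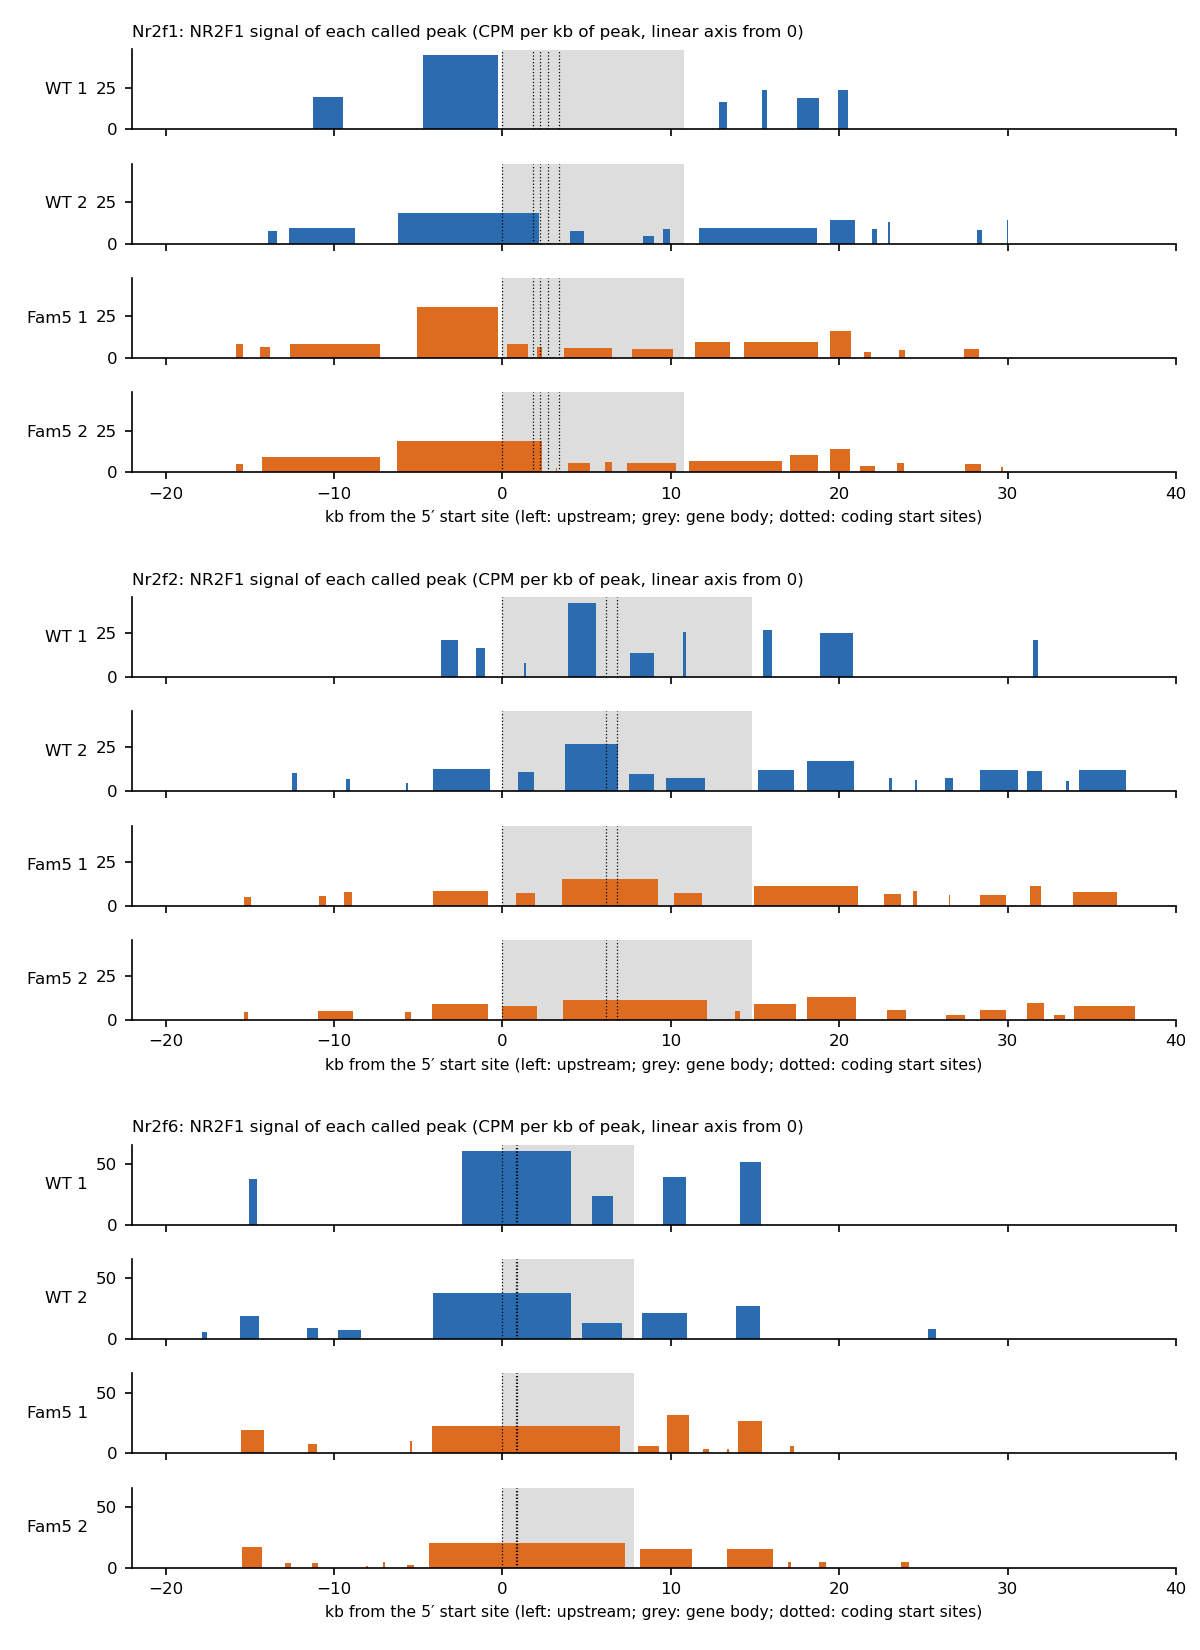
Called peaks around Nr2f1, Nr2f2 and Nr2f6 in the 4 libraries (WT 1 and 2 in blue, Fam5snv/snv 1 and 2, labelled Fam5, in orange). Each bar is a peak, its width on the x axis in kb from the 5′-most start (upstream to the left) and its height the CPM per kb of peak. At Nr2f1 the tallest bar lies upstream of the start in replicate 1 of each genotype and spans the start in replicate 2. At Nr2f2 it lies inside the gene body except in Fam5snv/snv replicate 2 (past the 3′ end), and at Nr2f6 it spans the start except in Fam5snv/snv replicate 1 (at Ocel1).

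Nr2f1, the gene of the protein that the antibody targets, carried its strongest signal in a region that reached from upstream of its start into the gene. Its lead region, chr13:78197403-78205997, ran from 6.24 kb upstream to 2.35 kb downstream of the 5′-most start, with 27.4% of its length in the gene body, and it also covered starts of the antisense gene A830082K12Rik, so the signal cannot be assigned to either gene. The lead region had 197 CPM in WT replicate 1, 152 in WT replicate 2, 160 in Fam5snv/snv replicate 1 and 161 in Fam5snv/snv replicate 2. The 2 Fam5snv/snv values lay between the 2 WT values. In WT replicate 1 the only peak of the lead region began 0.284 kb upstream of the start and ended 4.70 kb upstream, so that none of its 561 cut sites was called at the start itself. Fam5snv/snv replicate 1 showed the same placement, with 1078 of 1173 cut sites (91.9%) in a peak from 0.254 to 5.07 kb upstream and 81 in a separate peak 0.259 to 1.53 kb inside the gene. In WT replicate 2 and Fam5snv/snv replicate 2 a single peak covered both sides of the start, and since a count cannot be placed inside its peak, the split could not be seen there. The log2 fold change, Fam5snv/snv minus WT, was −0.12 (SE 0.23, 95% interval −0.65 to 0.41; edgeR adjusted p = 0.88).

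The body of Nr2f1 held far less. A region within 1 kb of an internal coding start, chr13:78193243-78196087, had no peak in WT replicate 1 and 6.33, 16.8 and 10.2 CPM in the other 3 libraries. The region chr13:78189475-78192359 in the 3′ part of the gene likewise had no peak in WT replicate 1 and 6.68, 13.8 and 15.6 CPM in the others. Neither could be tested.

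Upstream of Nr2f1, the region chr13:78207003-78214169 (7.25 to 14.4 kb from the start, intergenic) had 35.4 CPM in WT replicate 1, 41.5 in WT replicate 2, 50.6 in Fam5snv/snv replicate 1 and 62.7 in Fam5snv/snv replicate 2. Both Fam5snv/snv libraries were above both WT libraries, as in 23.2% of all tested regions. The log2 fold change was 0.56 (SE 0.22, 95% interval 0.03 to 1.09), which did not pass the threshold (edgeR adjusted p = 0.57). Its peaks covered 25.003% and 62.5% of the region for WT and 83.3% and 98.1% for Fam5snv/snv, and per kb of called peak the order turned, with 19.7 and 9.27 CPM per kb in WT and 8.47 and 8.92 in Fam5snv/snv. Per kb, both Fam5snv/snv libraries were lower in 61.7% of all tested regions. The median log2 fold change over all tested regions in that scaling was −0.76, so the turn is not particular to this region. The part of peak width in the difference at this region was not tested. Downstream of Nr2f1, the region chr13:78180981-78188681, which holds starts of the non-coding gene Gm38604, had 39.6, 66.5, 61.2 and 54.0 CPM in the same order of libraries. The region chr13:78178819-78180290 had 14.01, 21.1, 19.5 and 16.8 CPM. In both of these the genotypes overlapped, with log2 fold changes of 0.12 (SE 0.28) and 0.05 (SE 0.35). The windows around Nr2f1 and Nr2f2 reach only 20 kb into the gene deserts that flank them, and signal farther out was not analysed here.

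At Nr2f2 the signal was centred inside the gene rather than on its 5′-most start. The lead region, chr7:70354612-70363214, lay wholly within the gene body, 3.52 to 12.1 kb downstream of that start, and covered the internal coding starts at positions 70360593 and 70359921. It had 94.6 CPM in WT replicate 1, 116 in WT replicate 2, 97.5 in Fam5snv/snv replicate 1 and 94.6 in Fam5snv/snv replicate 2. The genotypes overlapped, and the log2 fold change was −0.14 (SE 0.21, 95% interval −0.63 to 0.36; edgeR adjusted p = 0.85). The 2 WT libraries, whose peaks are narrower, placed the signal more closely. In WT replicate 1, 200 of 270 cut sites (74.1%) were in a peak of 1663 bp 3.88 to 5.54 kb downstream of the 5′-most start, and in WT replicate 2, 241 of 331 (72.8%) were in a peak 3.71 to 6.87 kb downstream. Both peaks hold the intronic repeat with 2 mismatches shown above, and 83.1% of regions as wide as the lead region held a repeat with up to 2 mismatches.

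The region over the 5′-most start of Nr2f2, chr7:70364663-70366768, was weak, at rank 26631 of 35770 tested regions by mean CPM and 33501 by CPM per kb. It had 1.05 CPM (3 cut sites) in WT replicate 1, 10.9 (31) in WT replicate 2, 7.93 (58) in Fam5snv/snv replicate 1 and 16.9 (134) in Fam5snv/snv replicate 2. The genotypes overlapped, and the fitted log2 fold change of 1.06 (SE 0.91) rests on the 3 cut sites of WT replicate 1. The peak of Fam5snv/snv replicate 2 alone reached the start, while those of the other 3 libraries ended 0.787 to 1.30 kb inside the gene, and starts of the non-coding gene B130024G19Rik lie in the same region. Upstream, the region chr7:70367494-70370924 (0.759 to 4.19 kb from the start) had 29.8 and 41.5 CPM in WT and 27.3 and 29.7 in Fam5snv/snv. Both Fam5snv/snv values were below both WT values, as in 21.4% of tested regions, with a log2 fold change of −0.32 (SE 0.26; edgeR adjusted p = 0.70).

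Downstream of Nr2f2, the region chr7:70345639-70351790 begins just past the 3′ end of the gene and was its next strongest, with 64.1, 75.3, 67.9 and 60.1 CPM in WT replicates 1 and 2 and Fam5snv/snv replicates 1 and 2. The genotypes overlapped there (log2 fold change −0.12, SE 0.20). The small region chr7:70334585-70335585 had 6.31 to 10.6 CPM over the 4 libraries (log2 fold change 0.04, SE 0.53). The region chr7:70329184-70332826 was counted as tested although WT replicate 1 had 0 cut sites there, in a peak of 47 bp, against 33.8 CPM in WT replicate 2 and 20.6 and 29.2 in the Fam5snv/snv libraries. Its fitted fold change (log2 0.56, SE 1.15) depends on how the 0 is handled and gives no direction. None of the 6 tested regions around Nr2f2 passed the test.

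**Figure D2:**
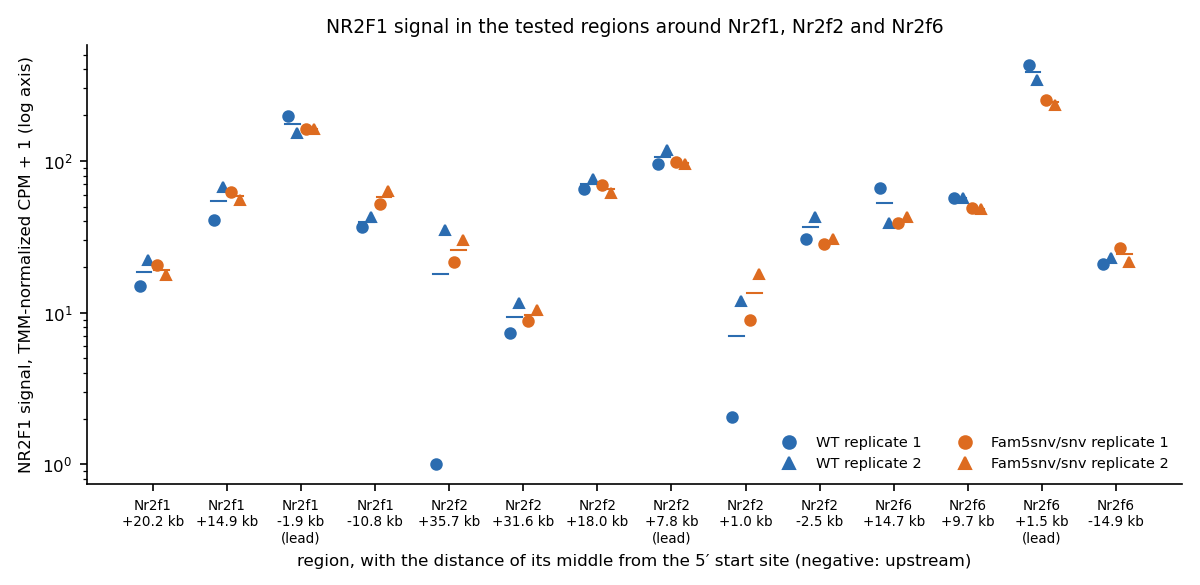
NR2F1 signal in the 14 tested regions, as TMM-normalized CPM plus 1 on a log axis, by region and the distance of its middle from the 5′-most start (negative upstream). Blue points are WT and orange points Fam5snv/snv (circle replicate 1, triangle replicate 2), and lines are genotype means of 2 libraries. The points of the genotypes overlap in 10 regions, and the lead region of Nr2f6 is the highest, with 424 and 340 CPM in WT and 251 and 232 in Fam5snv/snv.

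Nr2f6 carried the most signal of the family by CPM, over its start and into its body. Its lead region, chr8:71374698-71386296, ran from 4.34 kb upstream to 7.26 kb downstream of the 5′-most start, with 62.6% of its length in the gene body, and it was the 23rd of 12647 promoter regions by mean CPM. It had 424 CPM in WT replicate 1, 340 in WT replicate 2, 251 in Fam5snv/snv replicate 1 and 232 in Fam5snv/snv replicate 2. Both Fam5snv/snv libraries were below both WT libraries, as in 21.4% of all tested regions. The log2 fold change was −0.66 (SE 0.24, 95% interval −1.23 to −0.09), lower than that of all but 4.57% of promoter regions, but it did not pass the threshold over all regions (edgeR adjusted p = 0.57). DESeq2 gave −0.67 and an adjusted p = 0.047. Without WT replicate 1 edgeR gave −0.50 with an adjusted p = 0.024, a setting that called 1.17% of all tested regions lower and 4.17% higher. Without WT replicate 2 it gave −0.81 with an adjusted p = 0.00031, a setting that called 6.21% lower and 11.4% higher. Without Fam5snv/snv replicate 1 or 2 the values were −0.72 and −0.60, with an adjusted p of 0.999 and 1. Scaled by the number of barcodes, which moved the median of all tested regions to 0.97, the Nr2f6 lead region read 0.34, or −0.63 relative to that median. Per kb of called peak it had 55.0 and 32.1 CPM per kb in WT and 22.5 and 19.99 in Fam5snv/snv. In that scaling the median log2 fold change of all tested regions was −0.76. Both Fam5snv/snv libraries were lower per kb in 61.7% of tested regions, so much of that drop is shared by most regions. In the main fit, promoter regions as a whole had a median log2 fold change of −0.21, and the 10 housekeeping promoters listed had a median of −0.34.

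In the 2 WT libraries nearly all signal within the Nr2f6 lead region came from a wide peak over the start. In WT replicate 1 a peak from 2.40 kb upstream to 4.07 kb downstream held 1128 of 1210 cut sites, and in WT replicate 2 a peak from 4.14 kb upstream to 4.09 kb downstream held 880 of 967. A second peak near the 3′ end of Nr2f6 held the other 82 and 87 cut sites. In the Fam5snv/snv libraries a single peak of 11154 and 11599 bp covered both, so the difference between the genotypes cannot be assigned to one of them. The exact DR1 repeat lies in the peak over the start, 0.363 and 0.382 kb from its downstream edge in WT replicates 1 and 2.

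The regions that neighbour Nr2f6 belong to other promoters and differed less. The region over Ocel1, chr8:71370688-71373921, had 55.7 and 55.9 CPM in WT and 47.7 and 47.3 in Fam5snv/snv. Both Fam5snv/snv values were lower, as in 21.4% of all tested regions (log2 fold change −0.23, SE 0.19, edgeR adjusted p = 0.71). The region over Use1, which encodes a SNARE protein, chr8:71365886-71368651, had 64.8 CPM in WT replicate 1 and 38.0, 38.1 and 41.3 in the other libraries. The high value was that of a single WT library, and the log2 fold change was −0.37 (SE 0.28). Upstream of Nr2f6, the region chr8:71396145-71397529 near Babam1 and Ushbp1 had 19.97, 21.8, 25.8 and 20.5 CPM, with overlapping genotypes (log2 fold change 0.15, SE 0.29). The other 14 regions around Nr2f6 had no peak in WT replicate 1 and at most 9.50 CPM in any library.

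Across the family, 0 of the 14 tested regions passed an edgeR adjusted p of 0.05, and 0% of all 35770 tested regions passed it in either direction. At an unadjusted p under 0.05 there was 1 region lower, the lead region of Nr2f6, where 3.37% of all tested regions were lower, and 1 higher, the region 7.25 to 14.4 kb upstream of Nr2f1, where 5.29% were higher. DESeq2 called 1 of the 14 at an adjusted p under 0.05, the lead region of Nr2f6, against 0.542% of all tested regions called lower and 1.02% called higher. The log2 fold change was above 0 in 7 regions and below 0 in 7, with a median of −0.04, beside a median of 0.02 over all tested regions. Genotypes did not overlap in CPM in 4 regions, 3 lower and 1 higher, where 21.4% and 23.2% of all tested regions were lower and higher. Per kb of called peak, both Fam5snv/snv libraries were lower in 11 of the 14, where 61.7% of all tested regions were, and higher in 0, where 0.749% were. With 2 libraries for each genotype the p-values measure the spread between these pools of embryos.

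**Figure D3:**
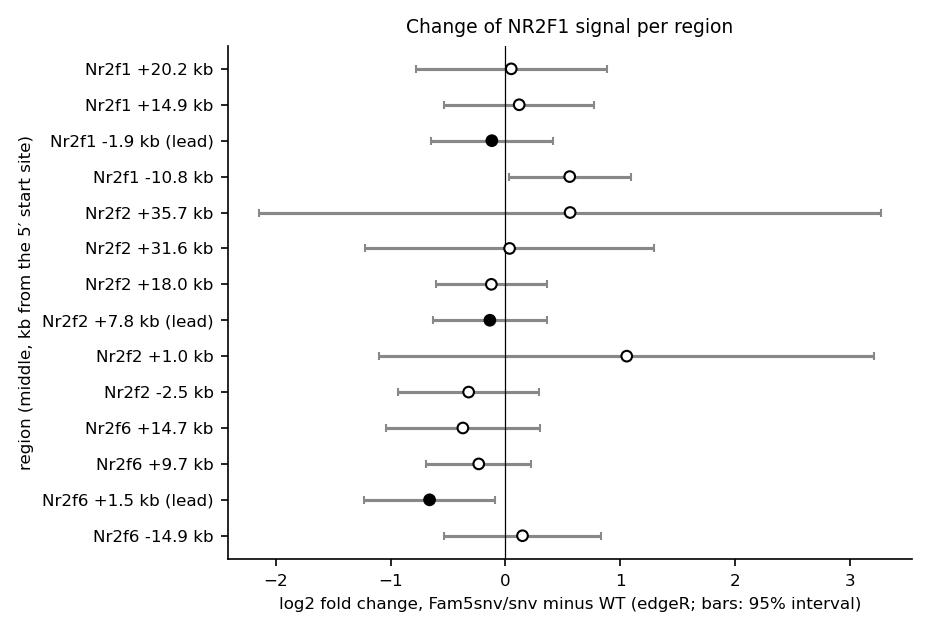
Change of NR2F1 signal in each of the 14 tested regions around the NR2F genes, as the edgeR log2 fold change, Fam5snv/snv minus WT, with its 95% interval (filled points are lead promoter regions, labels give the middle of the region in kb from the start, negative upstream). The intervals of the lead region of Nr2f6 (−1.23 to −0.09) and of the upstream region of Nr2f1 (0.03 to 1.09) leave out 0, and no region passed the adjusted threshold.

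Levels were compared between the 3 genes per kb of called peak, because lead regions differ in width and libraries in how widely peaks were called. The Nr2f6 lead region had 55.0, 32.1, 22.5 and 19.99 CPM per kb in WT replicates 1 and 2 and Fam5snv/snv replicates 1 and 2. The Nr2f1 lead region had 44.5, 18.2, 25.04 and 18.7, and the Nr2f2 lead region had 28.9, 16.8, 13.2 and 11.1. Nr2f6 was above Nr2f2 in 4 of 4 libraries, by 0.87 on the log2 scale (SD 0.079), and Nr2f1 was above Nr2f2 in 4 of 4, by 0.61 (SD 0.35). Nr2f6 was above Nr2f1 in 3 of 4 libraries, by 0.27 (SD 0.41), a difference smaller than its spread. With 4 libraries the exact two-sided permutation test cannot give a p below 0.13, which it gave for both differences from Nr2f2 (0.188 adjusted over the 3 pairs), and it gave 0.375 for Nr2f6 against Nr2f1. By total CPM the differences were larger, 1.59 for Nr2f6 against Nr2f2 and 0.86 for Nr2f6 against Nr2f1. By CPM per kb, Nr2f6 ranked 1767th, Nr2f1 2965th and Nr2f2 6536th of 12647 promoter regions, where the median promoter region had 17.9 CPM per kb. The 10 housekeeping promoters listed had a median of 27.5 CPM per kb, from 19.8 to 41.9. Means of the 4 libraries were 32.4 at Nr2f6, 26.6 at Nr2f1 and 17.5 at Nr2f2, so Nr2f1 and Nr2f2 were not above that median.

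**Figure D4:**
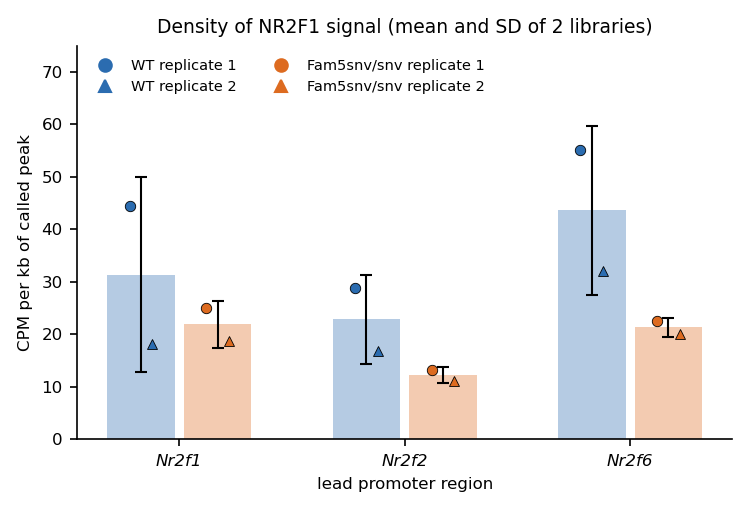
CPM per kb of called peak in the lead promoter regions of Nr2f1, Nr2f2 and Nr2f6. Bars are means of 2 libraries with SD, points are libraries (circle replicate 1, triangle replicate 2). WT replicate 1, with the narrowest peaks, is highest at each gene (44.5, 28.9 and 55.0), and the other 3 libraries are closer together.

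The same signal was seen in few barcodes per gene, as the share with at least 1 cut site in the lead region shows. Each barcode was thinned to 567 cut sites, the 25th percentile of the shallowest library, which left out 641 barcodes of WT replicate 1. At this depth Nr2f6 was seen in 13.98% of barcodes of WT replicate 1 (exact 95% binomial interval 12.5% to 15.6%), 12.1% of WT replicate 2 (10.4% to 13.97%), 9.63% of Fam5snv/snv replicate 1 (8.45% to 10.9%) and 8.50% of Fam5snv/snv replicate 2 (7.49% to 9.61%). Both Fam5snv/snv shares of Nr2f6 were below both WT shares. The 567 cut sites were drawn from all peaks of a library, which covered 31.0 and 93.1 Mb in WT and 108 and 143 Mb in Fam5snv/snv. Tested regions held 3068305 of 3083946 and 2786516 of 3580517 cut sites in WT. In Fam5snv/snv they held 7167305 of 8967987 and 7662318 of 10341894, so equal depth per barcode is not equal depth in tested regions. The part of this in the order of the shares was not tested. Unthinned, the Nr2f6 shares were 18.4%, 24.5%, 27.1% and 23.8% with medians of 879, 1867, 2694 and 2984 cut sites per barcode, so depth differed between the libraries and no genotype order is read from these shares. Nr2f1 was seen in 6.89%, 6.03%, 6.201% and 5.91% of thinned barcodes and Nr2f2 in 3.52%, 4.36%, 3.30% and 3.65%, with overlapping intervals between genotypes. The intervals cover counting error only, and barcodes are not replicates.

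**Figure D5:**
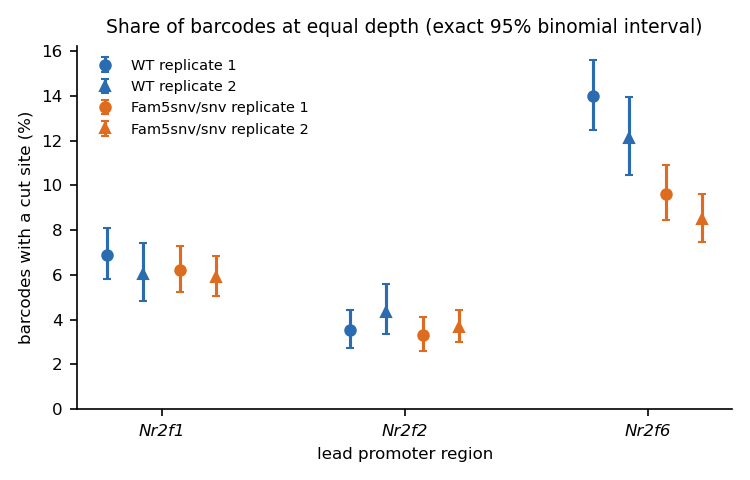
Share of barcodes with at least 1 cut site in the lead promoter region of each gene after thinning to 567 cut sites per barcode, with exact 95% binomial intervals (blue WT, orange Fam5snv/snv, circle replicate 1, triangle replicate 2). Nr2f6 is at 13.98% and 12.1% in WT and 9.63% and 8.50% in Fam5snv/snv, and the genotypes overlap at Nr2f1 and Nr2f2.

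Without thinning, 28.1% of WT replicate 1 barcodes, 39.1% of WT replicate 2, 44.7% of Fam5snv/snv replicate 1 and 43.5% of Fam5snv/snv replicate 2 had a cut site in at least 1 of the lead regions of Nr2f1, Nr2f2 and Nr2f6. Between 4.04% and 11.96% had cut sites in 2 or 3 of them. A positive barcode held a median of 2 cut sites at each gene in each library, and 70.1% to 90.3% of positive barcodes held only 1 or 2, which is what a single fragment with both ends in a peak gives. Signal at the NR2F genes was thus close to 1 fragment per positive cell, and a barcode without a cut site cannot be read as a cell without NR2F1 there.

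The rest of the NR2 subfamily and its partners were read from lists of genes. Of 9 other NR2 receptors, 6 had a tested promoter region, and 0 passed the adjusted threshold in edgeR (1 lower and 0 higher at an unadjusted p under 0.05, beside 847 lower and 195 higher of all 12647 promoter regions), with a median log2 fold change of −0.23. Nr2c2 and Nr2c1, which encode the testicular receptors TR4 and TR2 that also bind AGGTCA repeats, had 69.3 and 41.5 CPM per kb, above the 32.4 of Nr2f6, 26.6 of Nr2f1 and 17.5 of Nr2f2 (means of 4 libraries). Rxrb, an RXR partner of nuclear receptors, was the lower one, with 124 and 105 CPM in WT and 83.3 and 80.3 in Fam5snv/snv (log2 fold change −0.48, SE 0.20; edgeR adjusted p = 0.58). Nr2e1, which encodes TLX, a regulator of neural stem cells, had 9.75 CPM per kb, and Rxra had 9.08, both below each of the 3 NR2F lead regions. Rxrb and Rxrg had 26.7 and 22.03 CPM per kb. Nr2e3, Hnf4a and Hnf4g had no tested promoter region.

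All 3 retinoic acid receptor genes had a tested promoter region, and 0 passed the adjusted threshold in edgeR, with a median log2 fold change of −0.19. At an unadjusted p under 0.05, 1 was higher (Rarb) and 0 lower, beside 195 higher and 847 lower of all 12647 promoter regions. Rara read −0.19 (SE 0.26) and Rarg −0.61 (SE 0.45). Rarb, a gene induced by retinoic acid in the hindbrain, had 17.9 and 10.9 CPM in WT and 31.0 and 31.7 in Fam5snv/snv (log2 fold change 1.12, SE 0.33; edgeR adjusted p = 0.57). Among the 5 partners and corepressors of COUP-TF, all tested, 0 passed the adjusted threshold and 0 had an unadjusted p under 0.05, with a median log2 fold change of −0.22. Their median density was 14.99 CPM per kb, and Bcl11b, which encodes the COUP-TF interacting protein CTIP2, had 25.3. DESeq2 called 0 regions of the other NR2 receptors, the retinoic acid receptors and the partners higher or lower at an adjusted p under 0.05. The median over the lists is to be read beside that of −0.21 over all tested promoter regions.

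Promoters of endothelial genes are given because NR2F2 is also known from endothelium, and they were singled out from the cell type lists after their values were seen. Of 4 listed, 2 had a tested region, and both Erg and Sox18 were higher in Fam5snv/snv at an unadjusted p under 0.05, as were 195 of all 12647 promoter regions, but neither passed the threshold (edgeR adjusted p = 0.57 each). DESeq2 called Erg alone, as higher, at an adjusted p under 0.05, where it called 1.02% of all tested regions higher. The summed signal of Erg and Sox18 was 89.7 and 77.4 CPM in WT and 139 and 136 in Fam5snv/snv, while Cdh5 and Kdr, which define endothelium, had no tested promoter region. Their part in the values at the NR2F genes was not tested.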

How the data were processed

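Single-cell CUT&Tag with an antibody against NR2F1 was analysed in 4 libraries, 2 WT and 2 Fam5snv/snv, each from pooled E10.5 embryos. Per library, the authors deposited the barcodes called as cells, the positions of called peaks and a matrix of raw counts, each the number of cut sites of 1 barcode in 1 peak. Per the submitters' processing notes these were made with Cell Ranger ATAC on mm10, and the matrix headers give software version 1.2.0. Peaks were called per library, and barcodes were used as deposited, with neither filtering nor doublet calling.

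Barcodes were summed within each library, and peaks within each merged region. A region was tested if every library had a peak in it and 2 or more libraries had 10 or more cut sites there, and the 35770 that passed were fitted with edgeR 4.0.16 (quasi-likelihood test, TMM, no block, R 4.3.3) with Benjamini-Hochberg adjustment over all of them. A wide merged region can hold several promoters. In the median region WT replicates had 42 and 47 cut sites and Fam5snv/snv replicates 126 and 139, so that WT counts limit the precision. Coordinates are 1-based, genes are from GENCODE M21 on GRCm38.p6, and the windows before RefSeq starts come from RefSeq, where all 3 genes matched. The fit was tested on simulated data. Exact tests and intervals used scipy 1.17.1.

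Alternatives were DESeq2 1.42.0, other scalings (library size, barcodes, kb of called peak), other filters (none, 50 cut sites, 50% of the region covered, regions that lack a peak in some library), peaks up to 500 bp apart merged, a replicate block, each library left out, and other thinning. Named genes were, by rule, the members, genes with a start in their regions, the members of the gene lists, and the 3 promoter regions most like each lead region by the Euclidean distance of log2(CPM + 1). The members and lists were chosen with earlier results of these data known. The labels name replicates by number only, and the study's legend calls them biological.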

Additional observations from a re-analysis of the deposited data

How the results depend on the processing

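Fold changes of NR2F regions turned sign in 25 of the values computed under an alternative, were called in 6 and kept direction and call in 153. Of the 25, 7 came from scaling by barcodes and 7 from scaling per kb of called peak, which shift all regions together. Relative to the median of all tested regions these kept their sign, but a value that had not turned could turn relative to it. The Nr2f1 region at 78178819 scaled by barcodes read 0.93, or −0.04 relative to the median, against 0.03 relative to it in the main fit. Scaling by the number of barcodes moved the median of all tested regions to 0.97, and the lead regions read 0.88 at Nr2f1, 0.77 at Nr2f2 and 0.34 at Nr2f6 (−0.09, −0.20 and −0.63 relative to that median), with 0.80 and 0.56 at the regions just downstream and upstream of Nr2f2 and 0.69 and 0.72 at Use1 and Ocel1 (−0.17, −0.41, −0.28 and −0.25 relative to it). Per kb of called peak the median was −0.76, and the 3 other regions around Nr2f1 read −0.29, −0.72 and −0.72, those of Nr2f2 at 70329184, 70334585 and 70364663 read −0.42, −0.60 and −0.43, and that near Babam1 read −0.64 (0.47, 0.04, 0.04, 0.34, 0.16, 0.33 and 0.12 relative to it). With at least 50% of the region covered in each library, the Nr2f1 lead region read 0.19. With 1 library left out, the lead regions ranged from −0.29 to 0.070 at Nr2f1, from −0.29 to 0.022 at Nr2f2 and from −0.81 to −0.50 at Nr2f6. The regions around Nr2f1 at 78178819 and 78180981 ranged from −0.22 to 0.37 and from −0.21 to 0.54, those around Nr2f2 at 70329184 and 70334585 from −0.44 to 10.2 and from −0.29 to 0.45, and those at Use1 and Babam1 from −0.70 to 0.058 and from −0.028 to 0.31. The cause was not tested.

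The count of NR2F regions at an adjusted p under 0.05 was 0, and 1 with DESeq2 (the Nr2f6 lead region at −0.67, adjusted p = 0.047). With 1 library left out it ranged from 0 to 4. The 4 without WT replicate 2 were the Nr2f6 lead region, Use1 and the Nr2f2 regions at 70364663 and 70329184, the last 2 resting on the 3 and 0 cut sites of WT replicate 1. Over all regions edgeR called 0 higher and 0 lower (1892 and 1206 at an unadjusted p under 0.05), against 366 and 194 with DESeq2, 14 and 4 of 8900 with 50% coverage, 1492 and 419 without WT replicate 1 and 4094 and 2221 without WT replicate 2, where the remaining library of WT is assumed to vary like the other group. With the replicate block the lead regions of Nr2f1, Nr2f2 and Nr2f6 read −0.11, −0.13 and −0.65 and 0 regions passed. The labels do not say whether libraries of the same replicate number were processed together. The difference of replicates 1 and 2 in WT and in Fam5snv/snv had r = 0.029 across regions. With 2 pairs, and with the narrow peaks of WT replicate 1 in that difference, this value cannot decide it.

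The 3 differences in CPM per kb kept their direction under each alternative run. Shares of barcodes in WT and Fam5snv/snv were 8.38% and 8.50% at Nr2f1, 5.66% and 5.38% at Nr2f2 and 17.9% and 12.5% at Nr2f6 with thinning to 879 cut sites. Without thinning they were 10.8% and 18.4%, 7.69% and 12.02%, and 21.5% and 25.4%. With only the peak at the start window, Nr2f2 in Fam5snv/snv had 3.16%. Nr2f6 had 12.1% in WT and 9.42% in Fam5snv/snv in that setting, against 13.1% and 9.07% with all peaks of the region. Each thinning was a single random draw. In Fam5snv/snv replicate 2 the Nr2f6 lead region is a single peak, so both settings used the same counts, yet they gave 8.50% and 9.56%. WT depth limits all values that rest on WT replicate 1, and regions without a peak there were not tested.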

Other observations

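The promoter regions whose pattern over the 4 libraries was most like that of each lead region, by the Euclidean distance of log2(CPM + 1), are given as values. For Nr2f1 they were Lmntd2 (in a region shared with Rassf7, distance 0.085), Il3ra (0.126) and Zfp827 (0.161). For Nr2f2 they were Cnn3 (0.119), Ankrd13b (shared with Git1, 0.122) and Sema6a (0.134). For Nr2f6 they were Ing1 (0.218), Cic (0.238) and Skil (0.264). Ing1 had 398 and 296 CPM in WT and 253 and 234 in Fam5snv/snv. Cic had 421 and 296 CPM in WT and 251 and 253 in Fam5snv/snv. Skil had 411 and 291 CPM in WT and 266 and 248 in Fam5snv/snv. Per kb of called peak Ing1 and Skil, at 70.6 and 66.7 CPM per kb, were above Nr2f6 at 32.4.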
